A study of Mus musculus with 28 samples.

Results

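The ductal and acinar-to-ductal metaplasia markers described here are 9 genes, chosen by name: Sox9, Krt7, Krt8, Krt18, Krt19, Spp1, Cd44, Clu and Muc1. They are 9 of the 35928 gene symbols to which the deposited transcripts of mouse pancreas and liver were assigned. Levels are given as TPM, which scales reads by transcript length and then by the total of the library, so that levels of different genes can be compared. The animals came from a line in which the human APOBEC3B cDNA fused to turboGFP (A3B), a cytosine deaminase, sits in the Col1a1 locus under a tetracycline-responsive promoter. A3B mice also carried the CAGs-rtTA3 transactivator, whose CAGs promoter acts in most cells of the body. They ate doxycycline food (625 ppm) from 4 weeks of age for 10 days and were killed when ill, at a humane endpoint. By the sample labels and the study's list of mice, controls were fed alike for 10 days, and by that list they carried the A3B transgene without the transactivator. A figure legend of the study describes its pair of sequenced control animals as given no doxycycline, so the sources disagree, and an effect of doxycycline itself cannot be told apart from that of A3B if the legend holds. There were 6 A3B and 2 control pancreases and 6 A3B and 2 control livers, and mice 44, 49, 125, 137 and 153 (A3B) and 45 and 168 (control) gave both organs. Groups follow the sample titles. The genotype labels of A3B pancreases 44 and 137 name no transactivator, while those of control pancreases 45 and 168 do, so these labels and titles disagree. Human A3B is not among the mouse transcripts quantified for these pancreases and livers, so the transgene could not be used to check the labels. A separate table of TPM per gene covers 3 A3B and 3 control livers and 3 A3B and 3 control lungs of other mice.

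The exocrine pancreas is built of acini, which make digestive enzymes, and of ducts, which carry them away in bicarbonate-rich fluid. In acinar-to-ductal metaplasia, acinar cells lose their enzyme programme and take up a duct-like one. It is known from pancreatitis, and EGF receptor ligands, Notch and Hippo signalling and SOX9 take part in it. Of the simple-epithelium keratins, KRT7 and KRT19 are standard markers of ducts. In the liver KRT7, KRT19 and SOX9 mark bile duct cells and the ductular reaction of injured liver. KRT8 and KRT18 are not confined to ducts and are also the keratins of hepatocytes. SPP1 (osteopontin), CD44 and CLU (clusterin) are made by duct cells too, but also by macrophages or other cells, so none of the 9 is exclusive to ducts.

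Of the 9 genes, 7 were higher in A3B than in control pancreases by edgeR's quasi-likelihood test at an adjusted p under 0.05 (Krt7, Krt8, Krt18, Krt19, Spp1, Cd44 and Clu), and none was lower. Over all 19142 genes tested in the pancreas, 17.0% were called higher and 14.9% lower. The median fitted log2 fold change was 2.18 over the 9 genes and 0.09 over all genes. Sox9 and Muc1 did not pass. In bulk tissue, fewer cells of a type and less RNA per cell cannot be told apart, and this holds for every level below.

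**Figure D1:**
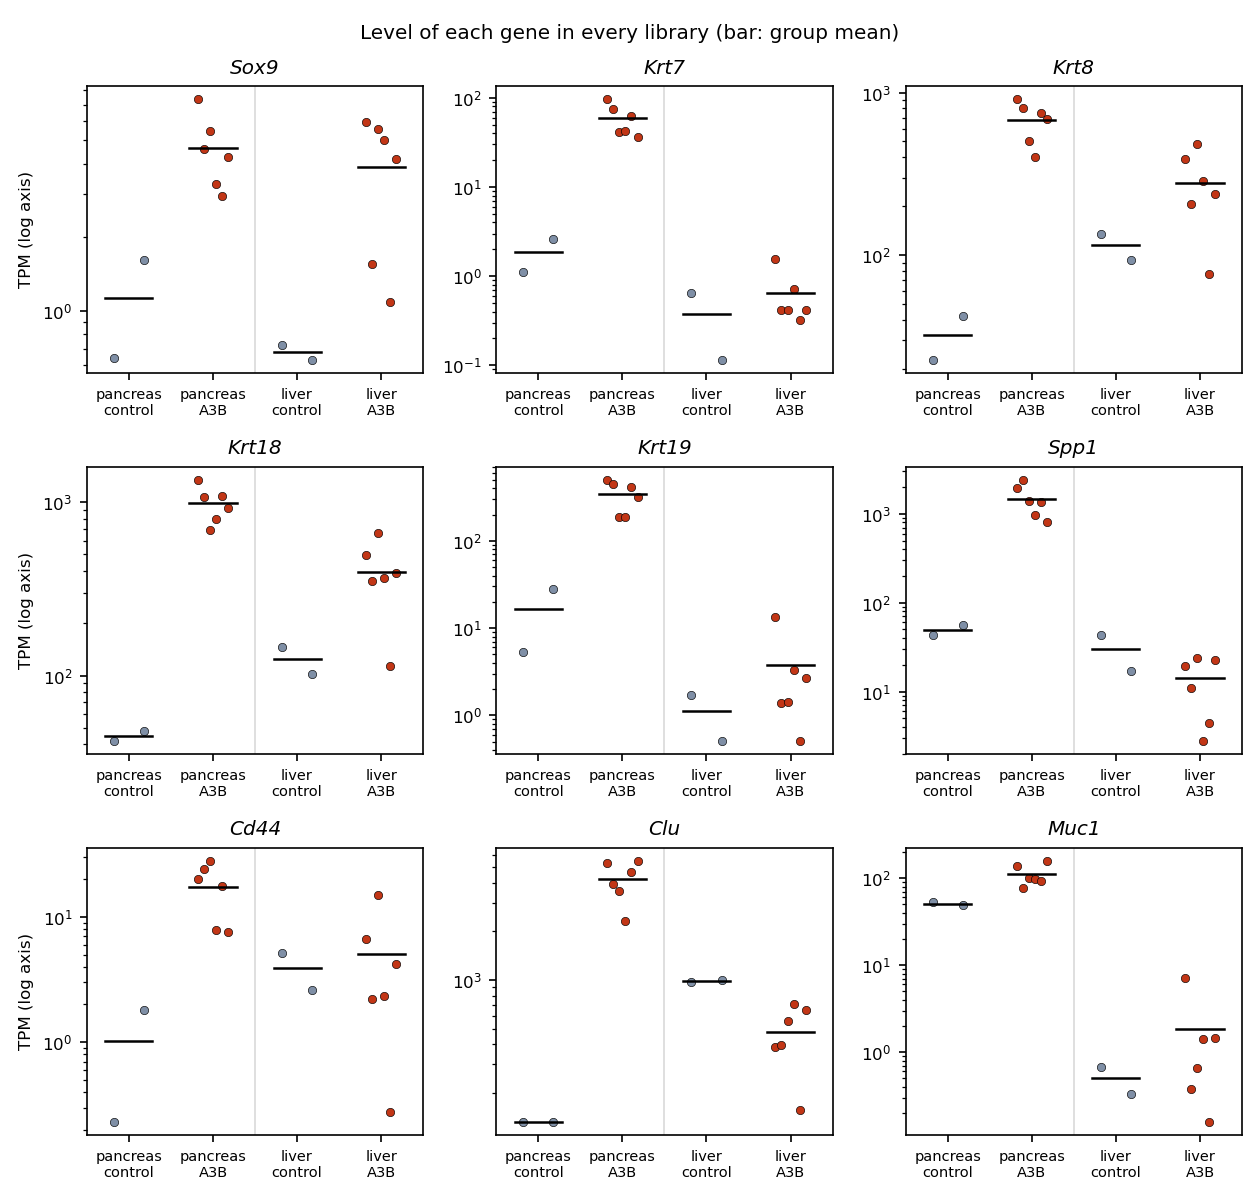
TPM of each gene in every pancreas and liver (log axis), with control libraries in grey, A3B libraries in red and a bar at each group mean. For all 9 genes the A3B pancreases lie above both control pancreases on the TPM scale, as do 70.8% of all genes tested (1.07% lie below both), while in the liver the groups separate for Sox9 (A3B higher, as for 24.3% of genes) and Clu (A3B lower, as for 5.42%).

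Krt7, Krt8, Krt18 and Krt19 encode intermediate filament proteins of simple epithelia. KRT7 and KRT8 are type II keratins, KRT18 and KRT19 are type I, and a filament needs a partner of each type. Krt7 stood at 1.12 and 2.60 TPM in control pancreases 45 and 168. In A3B pancreases 44, 53, 49, 125, 137 and 153 it stood at 96.9, 75.4, 41.7, 42.4, 62.1 and 36.0 TPM. The groups did not overlap, and the fitted log2 fold change of 3.03 (SE 0.48, adjusted p = 0.001422) passed the threshold.

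Krt8 had 22.7 and 42.1 TPM in the controls and, in the same order of A3B mice, 912, 799.7, 503, 402, 751 and 683 TPM. Krt18 had 41.9 and 48.0 TPM in the controls and 1345, 1079, 688, 796, 1094 and 929 TPM in A3B mice. The lowest A3B value of either keratin lay far above the higher control. Their log2 fold changes were 2.18 (SE 0.45, adjusted p = 0.005053) for Krt8 and 2.11 (SE 0.47, adjusted p = 0.00696) for Krt18.

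Krt19, the keratin most often used to stain pancreatic ducts, had 5.28 TPM in control 45 and 28.1 TPM in control 168. It reached 498, 450.4, 190.0, 187, 412 and 321 TPM in the A3B pancreases. The controls differed from each other by 5.32 times, more than the 2.66 times between the highest and lowest A3B pancreas. The fitted log2 fold change was 2.33 (SE 0.59, adjusted p = 0.01358), and it fell to 1.85 (adjusted p = 0.09616) when control 45 was left out.

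Spp1 encodes osteopontin, a secreted matrix protein that binds integrins and CD44. Its level was 43.3 and 56.0 TPM in the control pancreases and 1945, 2401, 1398, 977, 1358 and 813 TPM in the A3B pancreases. The lowest A3B pancreas, from mouse 153, was still far above both controls (log2 fold change 2.56, SE 0.53, adjusted p = 0.004983).

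Clu encodes clusterin, a secreted chaperone that rises in injured epithelia. It was the most abundant of the 9 genes in both pancreas groups, with 132 TPM in each control and 5316, 3947, 3567, 2329, 4653 and 5466 TPM in the A3B mice. The log2 fold change was 2.60 (SE 0.58, adjusted p = 0.007369).

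Cd44 encodes the hyaluronan receptor. It was low in the controls, at 0.231 TPM (96 estimated counts) in control 45 and 1.82 TPM in control 168, and stood at 20.1, 23.9, 27.9, 7.83, 17.6 and 7.50 TPM in the A3B pancreases. A3B mice 125 and 153 were the low ones, yet both lay above the controls (log2 fold change 2.03, SE 0.53, adjusted p = 0.01729). The call was lost without control 45 (1.56, adjusted p = 0.1102) and without A3B pancreases 44 and 137, whose genotype labels differ from their titles (1.91, adjusted p = 0.06553).

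Sox9 encodes a transcription factor of duct and bile duct cells that marks progenitors in both organs. It had 0.641 and 1.61 TPM in the control pancreases and 7.37, 4.59, 5.46, 3.31, 2.97 and 4.27 TPM in the A3B pancreases. On the TPM scale the groups did not overlap. On TMM-scaled log2 CPM (counts scaled to library size), 1 A3B pancreas lay above both controls and 5 below both, and the log2 fold change was -0.09 (SE 0.33, adjusted p = 0.8533).

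Muc1 encodes a membrane mucin of the apical surface of acinar and duct cells. It had 52.7 and 48.8 TPM in the controls and 138, 77.4, 101, 97.9, 92.5 and 157 TPM in the A3B pancreases. On TMM-scaled log2 CPM no A3B pancreas lay above both controls and 2 lay below both, with a log2 fold change of -0.39 (SE 0.38, adjusted p = 0.4616). In the control pancreases Muc1 (mean 50.8 ± 2.72 TPM, SD, n = 2) was at about the level of Spp1 (49.7 ± 8.96) and above Krt7 (1.86 ± 1.04). In the A3B pancreases Spp1 (1482 ± 597, SD, n = 6) was far above Muc1 (111 ± 30.4).

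The direction for Sox9 and Muc1 depended on how the libraries were scaled. The 10 most abundant genes held 62.4% and 59.7% of the counts of the control pancreases but 12.1% to 20.6% in A3B pancreases, so the TPM of the other genes depend on that share. TMM scaling gave the controls factors of 0.210 and 0.443 and the A3B pancreases 1.30 to 1.79. When the counts were scaled by library totals, all genes together had a median of 2.29 (log2), 13483 of the 13693 called genes were higher (70.4% of all genes tested), and all 9 markers were called higher, Sox9 at 2.06 and Muc1 at 1.97. With totals that leave out acinar enzymes and the 10 top genes, the median of all genes was 0.90, and Sox9 (0.69, adjusted p = 0.2013) and Muc1 (0.58, adjusted p = 0.1837) were not called. In the 5 scalings drawn in the plot of scalings, Sox9 and Muc1 lay below the median of all genes, and the other 7 markers lay above it by at least 1.94 (TMM and upper quartile), 1.78 (totals without acinar genes), 1.77 (library totals) and 1.41 (limma on log2 TPM). On TMM-scaled log2 CPM the 7 called markers had every A3B pancreas above both controls, a pattern shown by 25.1% of all genes tested.

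**Figure D2:**
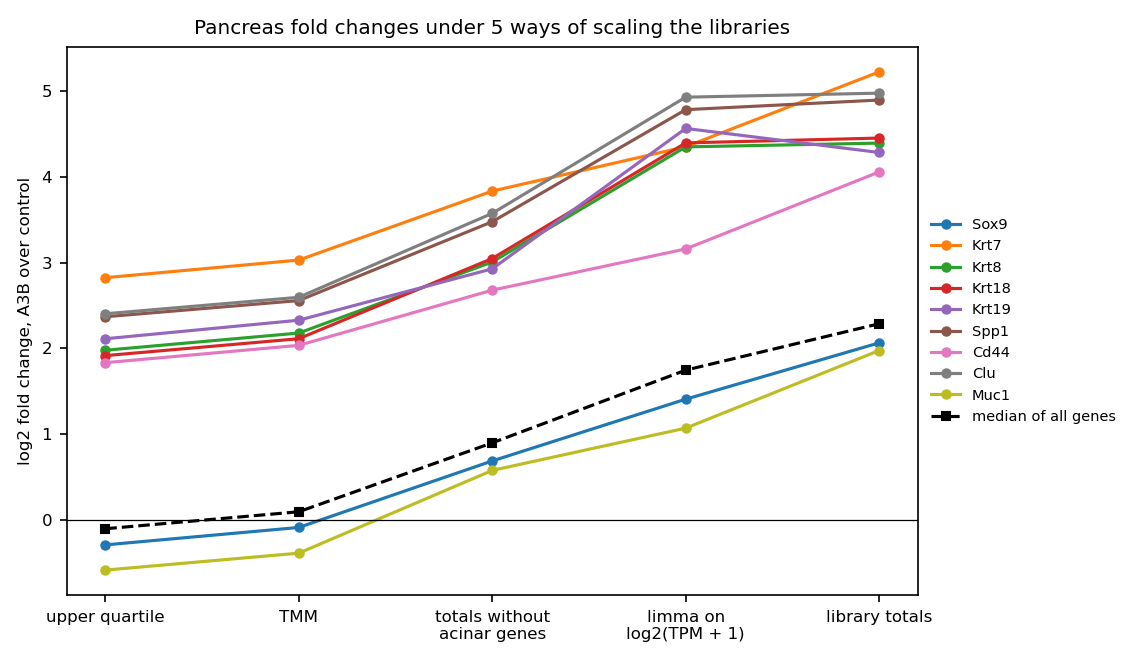
Log2 fold change (A3B over control pancreas) of each gene under 5 ways of scaling the libraries, with the median of all genes as a dashed line. The 7 called genes stay above the dashed line throughout, while Sox9 and Muc1 stay below it and cross 0 between TMM scaling and totals without acinar genes.

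A ratio of genes within a library depends little on its scaling, except through the 0.1 TPM added to each value, which weighs on genes near or below 1 TPM, such as Cd44 and Sox9 in controls. Each marker was set against the mean log2 TPM of 25 other duct and bile duct genes, such as Cftr, Epcam and Cldn4. Relative to them, Krt7 was higher by 1.99 in A3B than in control pancreases, Clu by 1.997, Spp1 by 1.87, Krt19 by 1.75, Krt18 by 1.48 and Krt8 by 1.45 (log2, means of 6 and 2 libraries), and for these 6 genes every A3B pancreas lay above both controls, as for 6.07% of all genes set against the same mean. The Cd44 ratio was higher by 1.35 on average, with 4 of 6 A3B pancreases above both controls, and by 0.80 with 1 TPM added instead. The Sox9 ratio was lower, at -1.70 ± 0.37 (SD, n = 6) in A3B against -0.77 ± 0.11 (SD, n = 2) in controls, and the Muc1 ratio was lower too, at 2.87 ± 0.50 against 4.73 ± 1.04, each with all 6 A3B pancreases below both controls, as for 49.2% of all genes. These ratios are a description and were not tested.

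**Figure D3:**
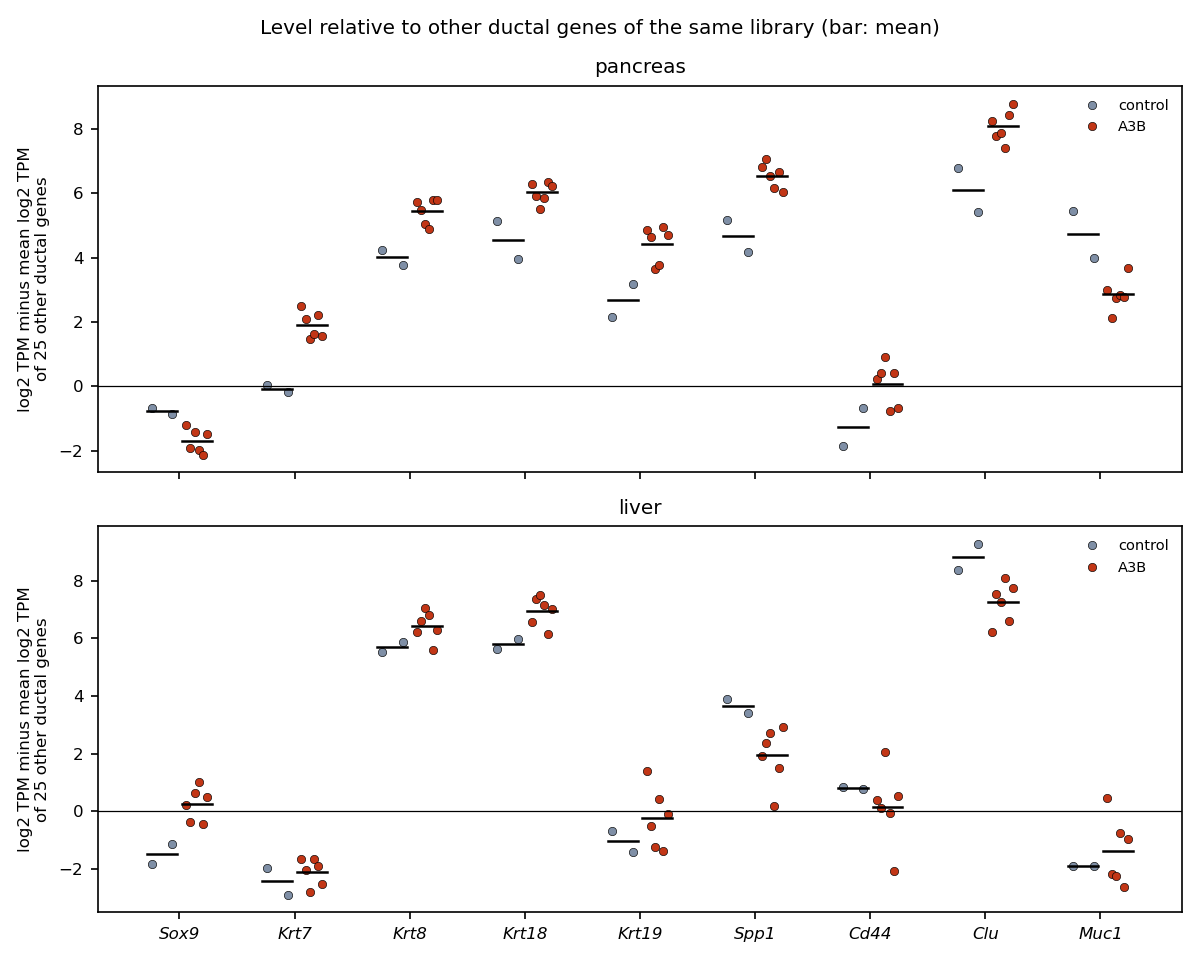
Log2 TPM of each gene minus the mean log2 TPM of 25 other ductal genes of the same library, in pancreas (top) and liver (bottom), controls in grey and A3B in red with a bar at the mean. In the pancreas the keratins, Spp1 and Clu shift up while Sox9 and Muc1 shift down. In the liver Sox9 and Krt18 shift up, each with all 6 A3B livers above both controls, as for 6.7% of all genes. Spp1 and Clu shift down there, each with all 6 A3B livers below both controls, as for 7.44% of all genes.

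The keratin partners kept a similar ratio in the pancreas. Krt8 minus Krt18 was -0.57 ± 0.21 (log2 TPM, SD, n = 6) in A3B and -0.54 ± 0.49 (n = 2) in controls. In the liver the ratio was -0.54 ± 0.18 in A3B and -0.12 ± 0.02 in controls, and all 6 A3B livers lay below both controls. This separation was not tested, and how many other gene pairs share it was not counted. Among single genes, 12.9% had every A3B liver below both controls on TMM-scaled log2 CPM. Over the 16 libraries the gene whose centred log2 CPM lay nearest to Krt8 was Krt18, at a root mean square difference of 0.25, and that nearest to Krt18 was Krt8, out of 16747 genes compared. The next nearest to both was Pvr, at 0.34 and 0.39. The genes nearest to Krt7 were Mfap2 (0.43) and Itgb6 (0.57), and those nearest to Krt19 were Epcam, an epithelial adhesion molecule (0.70), and the epithelial transcription factor Ehf (0.72). Cd44 lay nearest to Itgb2, the leukocyte integrin beta chain (0.41), and Themis2 (0.42). Spp1 lay nearest to Scara3 (0.73) and to the fibroblast collagen Col3a1 (0.74), Clu to Mdga1 (0.58) and Cd276 (0.58), Muc1 to Clic6 (0.60) and Ap1m2 (0.68), and Sox9 to Frmd6 (0.46) and Snx6 (0.56). These distances span both organs, so they mix organ and A3B differences.

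Krt8 and Krt18 lie next to each other on chromosome 15 (GRCm38, Krt8 at 101996698 to 102004482 on the minus strand and Krt18 at 102028180 to 102032027 on the plus strand), and Krt7 lies at 101411043 to 101430313 on the same chromosome. To show what the start regions of genes that moved together have in common, the 250 bases upstream of the RefSeq start site are printed for the 6 of 9 markers with an entry in the RefSeq promoter table (GRCm38.p6), 5′ to 3′ on the gene's strand. The windows are chr15:101412153-101412402 (Krt7, plus), chr15:102004343-102004592 (Krt8, minus), chr15:102027966-102028215 (Krt18, plus), chr5:104434861-104435110 (Spp1, plus), chr2:102901666-102901915 (Cd44, minus) and chr3:89228806-89229055 (Muc1, plus). Capitals mark matches, on either strand, to TATAAA (the TATA box), GGGCGG (the GC box), TGANTCA (the AP-1 site), ACAANG (a core of SOX sites) and TGGGAA (the core of sites of RBPJ, the Notch effector).
Krt7: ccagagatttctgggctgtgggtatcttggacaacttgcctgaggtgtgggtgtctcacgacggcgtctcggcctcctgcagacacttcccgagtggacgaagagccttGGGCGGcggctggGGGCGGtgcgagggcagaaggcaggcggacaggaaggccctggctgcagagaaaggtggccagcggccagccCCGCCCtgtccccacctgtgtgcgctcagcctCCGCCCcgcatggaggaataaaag
Krt8: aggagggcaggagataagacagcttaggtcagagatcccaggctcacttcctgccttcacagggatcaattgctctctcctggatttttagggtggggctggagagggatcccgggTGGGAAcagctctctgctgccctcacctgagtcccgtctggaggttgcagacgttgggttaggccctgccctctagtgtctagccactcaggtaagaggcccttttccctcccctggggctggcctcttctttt
Krt18: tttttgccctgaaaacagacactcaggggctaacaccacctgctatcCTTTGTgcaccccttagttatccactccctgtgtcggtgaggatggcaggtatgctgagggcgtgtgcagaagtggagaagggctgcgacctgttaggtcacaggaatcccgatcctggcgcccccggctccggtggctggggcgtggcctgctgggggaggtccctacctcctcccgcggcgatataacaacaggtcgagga
Spp1: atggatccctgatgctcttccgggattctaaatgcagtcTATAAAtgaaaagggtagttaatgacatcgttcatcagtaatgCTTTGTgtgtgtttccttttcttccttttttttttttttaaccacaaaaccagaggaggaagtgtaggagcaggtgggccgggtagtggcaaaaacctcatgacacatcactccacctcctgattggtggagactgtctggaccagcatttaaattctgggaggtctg
Cd44: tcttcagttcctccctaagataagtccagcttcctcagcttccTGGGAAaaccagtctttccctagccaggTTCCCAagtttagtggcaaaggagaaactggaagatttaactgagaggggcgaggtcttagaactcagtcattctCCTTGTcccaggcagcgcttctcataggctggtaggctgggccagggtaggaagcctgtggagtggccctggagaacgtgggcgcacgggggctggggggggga
Muc1: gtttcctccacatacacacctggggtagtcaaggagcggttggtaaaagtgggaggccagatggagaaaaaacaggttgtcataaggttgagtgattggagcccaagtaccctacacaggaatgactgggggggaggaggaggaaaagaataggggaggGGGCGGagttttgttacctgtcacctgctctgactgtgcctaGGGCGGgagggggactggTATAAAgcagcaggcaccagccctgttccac

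No motif was common to the 5 printed genes that rose. Krt7 held 4 GC box matches, and Muc1, which was not called, held 2, against 32.7% of all 32851 windows of the same length with at least 1. Matches to ACAANG stood in Krt18, Spp1 and Cd44 (36.3% of all windows) and matches to TGGGAA in Krt8 (1) and Cd44 (2), with 21.6% of all windows holding that motif. TATAAA matched in Muc1, 31 bases before the start site, and in Spp1, 211 bases before it (12.4% of all windows). TGANTCA matched in none of the 6 windows and in 6.75% of all. The start site of Krt7 in RefSeq lies 1360 bases inside the GENCODE gene. A match is a description of the letters, not evidence of a bound factor.

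Transcript estimates showed which forms carried Cd44 and Muc1. Cd44 is spliced into a short standard form and longer variant forms. The 9-exon transcript Cd44-203 had a mean of 0.525 TPM in control and 6.54 ± 3.71 TPM (SD, n = 6) in A3B pancreases. On TPM 70.8% of all genes tested had every A3B pancreas above both controls. Cd44-203 held 0% and 57.9% of the gene in controls 45 and 168 and 29.5% to 44.2% in A3B pancreases. These levels and shares were not tested. The 19-exon transcript Cd44-201, with the most exons, had 0 and 0.0618 TPM in the controls and 1.86 to 4.91 TPM in A3B pancreases, where it held 10.8% to 31.8% of the gene. In livers it held at most 4.72%. In control 45, with 96 estimated Cd44 counts, kallisto gave 100% to the 14-exon Cd44-207, and liver 48, with 75, had 68.6% on Cd44-207 and 31.4% on Cd44-203, so the shares of both rest on few counts.

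Muc1 did not pass the gene-level test, but its transcripts differed in share. The 7-exon coding transcript Muc1-201 held 31.6% and 37.9% of Muc1 in control pancreases and 64.1% to 95.6% in A3B pancreases, and it stood at 17.6 ± 1.32 TPM (SD, n = 2) against 86.0 ± 26.1 TPM (n = 6). The short non-coding transcript Muc1-202 (4 exons, 476 bases) held 62.5% and 53.7% in controls and 3.87% to 32.3% in A3B pancreases. The groups did not overlap for either share. Shares within a gene do not depend on library scaling, and they were not tested.

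**Figure D4:**
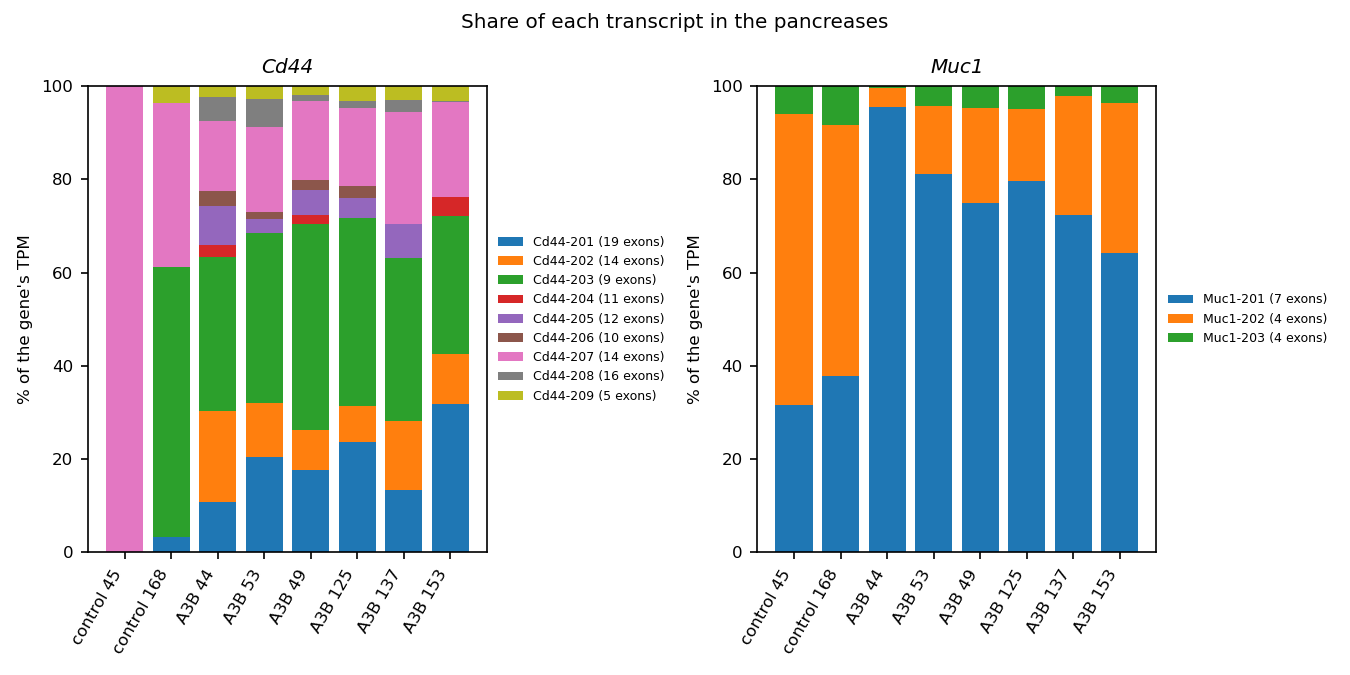
Share of each transcript in the TPM of Cd44 (left) and Muc1 (right) for the 2 control and 6 A3B pancreases (stacked bars, % of the gene). The 19-exon Cd44-201 and the coding Muc1-201 take larger shares in the A3B bars than in the control bars.

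Other genes of the ductal and metaplasia programme were read from lists. Among 25 further ductal genes, 9 were called higher and 1 lower in A3B pancreases, with a median log2 fold change of 0.73 against 0.09 over all genes. The tight junction gene Cldn4 had 0.85 ± 0.41 TPM in the 2 controls and 264.8 ± 131.9 TPM in the 6 A3B pancreases (mean ± SD), and its log2 fold change was 6.13 (SE 0.70, adjusted p = 0.0003065). The epithelial transcription factors Ehf and Elf3 rose by 1.56 (SE 0.23, adjusted p = 0.0008858) and 1.75 (SE 0.33, adjusted p = 0.003034). Cys1, a gene of the primary cilium, was the one called lower (log2 fold change -1.57, SE 0.31, adjusted p = 0.004031), although its TPM was 4.37 ± 1.47 in A3B and 2.73 ± 1.49 in controls.

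Of 30 genes of signalling tied to metaplasia, 17 were called higher and 0 lower, with a median of 1.17. The 4 with the smallest p were the EGF receptor Egfr (log2 fold change 1.68, SE 0.21, adjusted p = 0.0004037), its ligand Tgfa (1.92, SE 0.26, adjusted p = 0.0006357), Tgfb1 (1.98, SE 0.32, adjusted p = 0.001447) and Adam17, the protease that sheds EGF receptor ligands (1.07, SE 0.20, adjusted p = 0.003109). Of 16 tested genes of metaplastic, gastric and tuft cells, 7 were called higher and 3 lower. Cldn18, Anxa10 and Ctse, genes of the gastric epithelium, had means of 0.0117, 0.0441 and 0.152 TPM in controls and 15.2, 12.7 and 53.6 TPM in A3B pancreases, with adjusted p of 0.0009972, 0.001328 and 0.002133. Tff2, a trefoil peptide, went the other way, with 8801 ± 740.5 TPM in controls, 932 ± 1103 TPM in A3B pancreases and a fitted difference of -5.70 on the log2 scale (SE 0.92, adjusted p = 0.001959). Under library totals 23 of the 25 ductal genes and 30 of the 30 signalling genes were called higher. So were 70.4% of all genes tested under that scaling. Without A3B pancreases 44 and 137 the counts of these lists were 5 and 11.

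Markers of some other cells also differed in the pancreas, in both directions. Of 16 acinar genes 14 were called lower and 1 higher (the transcription factor Nr5a2, named after its values were seen). The summed acinar level was 428700 to 431600 TPM in controls and 81490 to 208800 TPM in A3B pancreases, the elastase gene Cela1 falling from 135100 to 156900 TPM down to 494 to 5444 TPM, whereas Ctrb1 was at 24600 to 25750 TPM and 35180 to 113900 TPM. Of 13 macrophage genes 12 were called higher (median log2 fold change 3.24). Their sum was 52.9 and 579 TPM in controls 45 and 168 and 2320 to 6665 TPM in A3B pancreases. None of the 13 was at 0 in every library of either group. Lyz2, the most abundant of them, was at 34.3 and 494.8 TPM in controls 45 and 168 and 951.5 to 3056 TPM in A3B pancreases, lowest in mouse 153, and C1qa was at 7.97 to 24.7 and 427 to 1241 TPM. Of 10 fibroblast and stellate genes 6 were called higher, the sum being 46.8 to 209.8 and 1014 to 1572 TPM, with Col3a1 at 15.4 to 55.1 and 426 to 751 TPM and Dcn at 17.8 to 99.7 and 133 to 384 TPM. Since macrophages make Spp1 and Cd44, their part in these levels was not tested. None of 8 T cell, 6 B and plasma cell and 10 hepatocyte genes was called in the pancreas. The summed hepatocyte level was 75.4 and 57.0 TPM in controls 45 and 168 and 123 to 1088 TPM in A3B pancreases, where pancreases 44 (1088 TPM) and 49 (963 TPM) were the high ones, and its part in the marker levels was not tested. The few calls in the remaining lists were, named after their values were seen, Cdh5 higher among 6 endothelial genes, Csf3r higher and Ly6g lower among 6 neutrophil genes, Upk3b lower among 7 mesothelial genes, Epcam higher among 10 cholangiocyte genes, and Ins1, Iapp and Pcsk1 lower among 10 endocrine genes. On the TPM scale the summed endocrine level was 3436 to 3512 TPM in controls and 3765 to 13310 TPM in A3B pancreases, with Ins1 at 430 to 467 and 387 to 1158 TPM. The cholangiocyte sum was 20.8 to 49.8 and 188 to 243 TPM and the endothelial sum 23.3 to 41.7 and 81.3 to 149 TPM. On this scale 70.8% of all genes tested had every A3B pancreas above both controls. The fitted median log2 fold changes were 0.10 for cholangiocyte, 0.0006 for endothelial and -1.33 for endocrine genes, against 0.09 over all genes.

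In the liver none of the 9 genes passed the threshold (adjusted p from 0.08966 to 0.9966), where 1.25% of 17376 genes were called higher and 2.41% lower. In edgeR, 4 markers had an unadjusted p under 0.05, against 22.9% of all genes, namely Sox9, Krt18, Spp1 and Clu. DESeq2 called Sox9 higher and Clu lower (7.64% and 6.45% of its genes were called higher and lower), and limma on log2 TPM called none.

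Sox9 stood at 0.725 and 0.629 TPM in control livers 45 and 168 and at 5.93, 1.55, 5.56, 5.02, 1.08 and 4.19 TPM in A3B livers 44, 137, 49, 125, 48 and 153. All 6 A3B livers lay above both controls, as for 15.0% of all genes on the log2 CPM scale, with mice 137 and 48 nearest to them. The log2 fold change was 2.09 (SE 0.62, adjusted p = 0.08966), and it passed without liver 48 (2.18, adjusted p = 0.03807) and in DESeq2 (2.01, adjusted p = 0.007063). Set against the 25 other ductal genes, Sox9 was higher in all 6 A3B livers (0.26 ± 0.57, SD, n = 6) than in both controls (-1.48 ± 0.48, n = 2), as were 6.7% of all genes set against the same mean.

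Clu, which hepatocytes secrete, was at 968 and 1002 TPM in control livers and at 387, 395, 560.3, 706, 156 and 651 TPM in A3B livers. Spp1 was at 43.6 and 17.1 TPM in controls and 19.6, 10.9, 24.0, 2.78, 4.45 and 22.7 TPM in A3B livers. On TMM-scaled log2 CPM both genes had every A3B liver below both controls, as did 12.9% of all genes. On TPM Spp1 overlapped, since control 168 was lower than 3 A3B livers. The log2 fold changes were -1.42 (SE 0.48, adjusted p = 0.1191) for Clu and -1.49 (SE 0.64, adjusted p = 0.1973) for Spp1. Over left-out libraries the Spp1 value ran from -2.03 (without control liver 168) to -0.92 (without control liver 45).

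Krt18 was at 146 and 102 TPM in control livers and 494, 353, 665, 365, 114 and 391 TPM in A3B livers (log2 fold change 1.28, SE 0.50, adjusted p = 0.1691). Krt8 was at 136 and 93.7 TPM and 388, 207, 479.7, 284, 77.0 and 237 TPM (0.87, SE 0.52, adjusted p = 0.3408). For both keratins liver 48 fell within or below the controls and the other 5 A3B livers lay above them. Set against the 25 other ductal genes, Krt18 was higher in all 6 A3B livers (6.97 ± 0.51, SD, n = 6) than in both controls (5.82 ± 0.25, n = 2). The same held for 6.7% of all genes set against that mean.

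Krt7 and Krt19, which hepatocytes lack, were low in most livers. Krt7 ranged from 0.325 to 1.55 TPM in A3B and was 0.643 and 0.115 TPM in controls, and Krt19 ranged from 0.507 to 13.5 TPM against 1.70 and 0.508 TPM. Liver 44 was the highest A3B liver for Krt7 (1.55), Krt19 (13.5) and Muc1 (7.04 TPM, the others 0.157 to 1.46 TPM). Without it the log2 fold change of Krt19 went from 1.31 to 0.38 and that of Muc1 from 1.43 to 0.36. Liver 44 also held the acinar gene Cpa1 at 16.9 TPM, as did liver 153 at 30.2 TPM, where Krt19 was 2.698 and Muc1 1.46 TPM, and control liver 45, the control with the higher Krt7, Krt19 and Muc1, held it at 4.47 TPM against 0 TPM in control liver 168. Whether pancreatic RNA contributed was not tested. Cd44 spread over 53.3 times among the A3B livers, from 0.278 TPM (liver 48) to 14.8 TPM (liver 49), around control values of 5.16 and 2.63 TPM, with a log2 fold change of 0.01 (SE 0.94, adjusted p = 0.9966).

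The summed hepatocyte markers were 97850 to 148700 TPM in control and 37840 to 88460 TPM in A3B livers, with Alb at 54670 to 107800 and 19350 to 44120 TPM, while Apoa1 overlapped at 13550 to 14390 and 8031 to 17760 TPM. The summed cholangiocyte markers were 49.0 and 57.3 TPM in control and 55.3 to 81.2 TPM in A3B livers, highest in liver 44, and 0 of 10 were called. Macrophage markers summed to 346 and 424 TPM in controls and 31.2 to 1270.0 TPM in A3B livers, lowest in liver 48 and highest in liver 49, the livers with the lowest and highest Cd44. Of 24 further ductal genes tested 1 was called higher, Atp1b1, a sodium pump subunit (40.9 ± 14.8 to 197.5 ± 88.9 TPM, log2 fold change 1.87, SE 0.42, adjusted p = 0.0435), and the biliary keratin Krt23 missed the threshold (3.32, SE 0.81, adjusted p = 0.05471). None of 29 signalling genes (Egfr -1.63, adjusted p = 0.1187) and none of 11 metaplasia genes (Pigr -2.23, adjusted p = 0.09189, and Vsig2 2.30, adjusted p = 0.09348) was called.

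**Figure D5:**
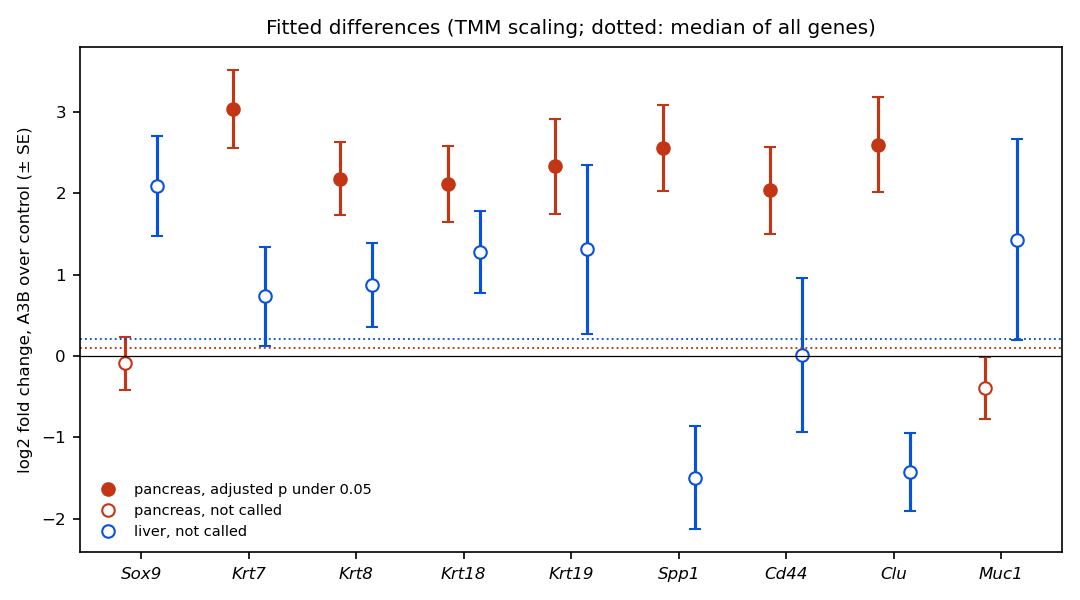
Fitted log2 fold change ± SE of each gene in pancreas (red) and liver (blue) under TMM scaling, with filled points for an adjusted p under 0.05 and dotted lines at the median of all genes. The 7 filled pancreas points lie between 2.03 and 3.03, no liver point is filled, and Spp1 and Clu lie on opposite sides of 0 in the 2 organs.

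The A3B difference itself was compared between organs as an interaction term over the 16 libraries. It was larger in pancreas than in liver for Clu (4.197 on the log2 scale, SE 0.86, adjusted p = 0.008098), Spp1 (4.24, SE 0.97, adjusted p = 0.01336) and Krt7 (2.48, SE 0.66, adjusted p = 0.0247), where 6.87% of 19927 genes were called in that direction and 5.02% in the other. Clu kept the call without any single library. Spp1 and Krt7 lost it when control liver 45 or either control pancreas was left out, the lowest of these being 3.598 (adjusted p = 0.07697) and 1.67 (adjusted p = 0.2145) without control liver 45. Sox9 pointed the other way, at -1.998 (SE 0.69, adjusted p = 0.06832), and passed at -2.14 (adjusted p = 0.04105) once the mouse was included as a block, but it was 0.005 (adjusted p = 0.9955) in limma on log2 TPM and -0.50 (adjusted p = 0.6353) with library totals. It also passed in DESeq2 (-2.09, adjusted p = 0.02276) and with upper-quartile scaling (-2.32, adjusted p = 0.03608). For Krt8 (1.49, adjusted p = 0.1606), Krt18 (1.01, adjusted p = 0.3275), Krt19 (1.19, adjusted p = 0.5231), Cd44 (2.21, adjusted p = 0.2301) and Muc1 (-1.64, adjusted p = 0.4192) the difference between the organs did not pass. Single libraries weighed on these values. Cd44 passed without liver 49 (2.98, adjusted p = 0.04483). Krt19 ran from 0.29 without control liver 45 to 2.04 without liver 44, Muc1 from -2.07 without control pancreas 168 to -0.65 without liver 44, and Krt18 from 0.63 without control pancreas 168 to 1.59 without control pancreas 45.

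By level, Krt7, Krt18, Krt19, Spp1, Clu and Muc1 were highest in A3B pancreas without overlap with the other groups, as were 16.8% of 19927 genes, while the Sox9, Krt8 and Cd44 ranges of A3B pancreas overlapped those of A3B liver. Krt8, Krt18, Cd44 and Clu were lowest in control pancreas. This order is by TPM. On TMM-scaled log2 CPM control pancreas 45 (7.75) lay above every A3B pancreas (6.35 to 7.56) for Muc1.

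In the table of other livers, 3 A3B livers (mice 23 and 28 after 14 days and mouse 70 after 10 days of doxycycline) were set against 3 controls (mice 11, 91 and 92, labelled 15 days). The study's list of mice, matched by mouse number, however gives no doxycycline for control mice 11, 88, 91 and 92. If the list holds, doxycycline and A3B cannot be told apart in these livers, and in the lungs only control 87 was fed doxycycline. The genotype label of control 11 also names the transactivator, but human A3B, which this table does quantify, was at 0.0928 to 0.144 TPM in the 3 control livers and at 1705, 705 and 1585 TPM in the A3B livers. Of the 8 markers tested by limma on log2(TPM + 1), none was called, against 7.93% of all genes. An unadjusted p under 0.05 was seen for 1 marker, and the share of all genes at that limit was not counted. Clu again lay lower in all 3 A3B livers, at 361, 687 and 441 TPM against 884, 718 and 898 TPM (log2 fold change -0.79, SE 0.33, adjusted p = 0.1486). Mouse 28 was far above the other 5 livers for Sox9 (15.2 TPM, others 0.459 to 2.82 TPM), Krt8 (735 TPM, others 101 to 154 TPM) and Krt18 (2115 TPM, others 436 to 738 TPM). Without it the Sox9 log2 fold change went from 0.96 to -0.04, that of Krt19 from 0.39 to -0.23 and that of Cd44 from 0.55 to -0.13. Spp1 was 0.590 TPM in mouse 23 and 14.4 to 20.3 TPM in the other 5 livers. Muc1, at most 1.62 TPM, was below the level filter.

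In the lungs human A3B was at 0.435 to 0.526 TPM in controls and at 90.6, 281 and 115 TPM in A3B mice. There, where Krt7, Krt8, Krt18, Krt19 and Muc1 belong to the airway and alveolar epithelium, 1 of 8 tested markers was called, against 36.8% of all genes. Cd44 was 167, 157 and 178 TPM in A3B lungs 69, 70 and 74 and 131, 132 and 94.2 TPM in controls 87, 88 and 91 (log2 fold change 0.50, SE 0.15, adjusted p = 0.03744). The call was lost when any of the 3 A3B lungs or control 91 was left out (0.35 to 0.55). Krt7 was 470.3, 395 and 342 TPM in A3B and 378, 442 and 313 TPM in control lungs, and Clu was 135, 164 and 107 TPM against 134, 174 and 113 TPM, so these groups overlapped. Sox9 was at most 0.278 TPM in the lungs and was not tested.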

How the data were processed

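RNA was extracted with AllPrep, made into TruSeq stranded libraries and read paired-end. For the 16 pancreas and liver libraries the authors ran kallisto 0.46.1 against mm10 and deposited estimated counts and TPM per transcript. For the 12 other libraries the authors deposited TPM per gene, made after STAR 2.7.1a. Of 119414 transcripts, 116728 were matched to GENCODE M21 and summed over 35928 symbols. Estimated counts were rounded, filtered with filterByExpr and tested with edgeR 4.0.16 (robust quasi-likelihood, TMM scaling), adjusting by Benjamini-Hochberg over all genes (threshold 0.05). Totals ran from 65161064 to 118976013 estimated counts. The TPM table was tested with limma 3.58.1 on log2(TPM + 1), keeping genes whose mean reached 1 TPM. Alternatives included DESeq2 1.42.0, other scalings and each library left out. Log2 CPM used a prior count of 2, and within-library ratios a pseudocount of 0.1 TPM. Figures used matplotlib 3.10.9.

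The 9 genes and all lists were chosen with earlier results of these data known. Named genes were all 9 markers, the 4 list genes with the smallest p in pancreas and 2 in liver, up to 2 most abundant genes of a cell type list, and the 2 nearest genes to each marker, with exceptions stated where they occur. Mouse numbers in the titles give pancreas and liver of the same animal, so they pair libraries across organs. The correlation of their deviations from the group mean was 0.21, -0.0044, 0.25, 0.28 and 0.094 in A3B mice 44, 49, 125, 137 and 153. Within an organ, A3B and control mice are different animals and p-values measure the spread between mice, with 2 controls.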

Additional observations from a re-analysis of the deposited data

Results flagged for a closer look

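Among the 6 A3B livers, liver 44 stood apart from the others for 3 of the 9 genes, as judged by the gap to its nearest neighbour over the whole range of the group. It had 1.55 TPM of Krt7 (gap 0.687 of the range), 13.5 TPM of Krt19 (0.784) and 7.04 TPM of Muc1 (0.811), against a limit of 0.625 for 6 samples. There were 18 such checks, over 9 genes and 2 groups, and chance flags about 1 in 20. Liver 44 and liver 153 were the livers with over 10 TPM of Cpa1, and 1 of these, liver 44, stood apart.

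The A3B difference was larger in pancreas than in liver, by the interaction term over 16 libraries, for Krt7 (2.48 on the log2 scale), Spp1 (4.24) and Clu (4.197). For Spp1 and Clu the fitted differences pointed in opposite directions (2.56 and -1.49 for Spp1, 2.60 and -1.42 for Clu), although the liver differences did not pass on their own.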

How the results depend on the processing

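Of 7 markers called in the pancreas, 5 to 7 stayed called when each library was left out in turn (2 lost without control 45), and 6 without A3B pancreases 44 and 137. Sox9 and Muc1 turned positive in the pancreas with library totals (2.06 and 1.97), limma on log2 TPM (1.41 and 1.07) and totals without acinar genes (0.69 and 0.58), and Muc1 ranged from -0.84 to 0.31 over left-out libraries, positive without control 45. Cd44 relative to Epcam went from 0.92 to -0.0707 with a pseudocount of 1 TPM. Each organ had 2 controls, and depth was low for Muc1 in liver 48, at 21 estimated counts. Where a value moved, the cause was not tested.

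In the liver DESeq2 called 1 marker higher and 1 lower, and 0 to 1 were called higher over left-out libraries. The liver value of Cd44, 0.0092, turned to -0.0087 with upper-quartile scaling, -0.0654 with DESeq2, -0.0609 with limma, -0.0061 with no filter and -0.0021 without the livers over 10 TPM of Cpa1 (chosen after seeing the data), and ran from -0.84 to 0.29 over left-out libraries.

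For the difference between organs, 3 markers were called higher in pancreas, 5 with library totals, 7 with limma and 1 to 4 over left-out libraries. The count called lower was 0, 1 with upper-quartile scaling, DESeq2 or the replicate block, and 0 to 1 over left-out libraries. Sox9 was 0.0046 with limma, and Muc1 was 0.02 with library totals and 0.49 with limma. With mouse number as a replicate block, Sox9 was -2.14, and the block changed no other call. No paired analysis was possible within an organ because A3B and control mice are different animals.

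In the table of other livers, values over left-out libraries ran from -0.0421 to 1.47 for Sox9, -0.23 to 1.21 for Krt19 and -0.13 to 1.32 for Cd44. In the lungs they ran from -0.20 to 0.11 for Clu, -0.12 to 0.14 for Muc1, -0.0343 to 0.21 for Krt7 and -0.0284 to 0.37 for Krt19, and 0 to 1 markers were called, 0 with no filter.

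Over all genes the pancreas calls numbered 6100, 13693 with library totals, 11557 with limma and 3826 to 5822 over left-out libraries. The liver calls numbered 636, 1119 with library totals, 2401 with DESeq2, 119 without the livers over 10 TPM of Cpa1 and 73 to 1596 over left-out libraries. The calls between organs numbered 2369, 8071 with library totals, 3763 with DESeq2, 7831 with limma and 546 to 3408 over left-out libraries. The other livers gave 913, 54 with no filter and 1 to 1562 over left-out libraries, and the lungs 5029 and 2998 to 4579. Of the ductal list 9 genes were called higher, 23 with library totals, 21 with limma, 17 with totals without acinar genes, 5 without A3B pancreases 44 and 137 and 5 to 10 over left-out libraries. Of the signalling list 17 were called higher, 28 with limma and 11 without A3B pancreases 44 and 137. Over all genes tested in the pancreas 17.0% were called higher in the main fit and 70.4% with library totals. Of the metaplasia list 3 were called lower, 1 with limma and 2 to 5 over left-out libraries.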

Other observations

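The share of the 8-exon transcript Spp1-202 in Spp1 went with the mouse rather than with the organ. Mouse 44 had 37.5% (liver) and 38.6% (pancreas), and mouse 125 had 46.9% and 39.98%. In mice 49, 137 and 153 it was 0%, 0% and 6.29% in the liver and at most 0.017% in the pancreas, and in control mice 45 and 168 it was 0% in both organs. Liver 48 had 71.3% and pancreas 53 had 0.009%, each from a mouse with 1 organ in the set. At the gene level mouse 44 had 1945 TPM and mouse 125 977 TPM of Spp1 in the pancreas, within the range of the other A3B pancreases. These shares are kallisto's estimates between transcripts that overlap in sequence, and they were noticed after the values were seen and not tested.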
